A study of Mus musculus with 23 samples.

Results

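The Tas2r genes encode the bitter taste receptors of the mouse. An array of 23 samples of circumvallate papilla, the taste papilla at the back of the tongue, carried 37 probes whose gene name is Tas2r followed by a number, and these stand for 35 genes of the 35019 gene symbols on the array. Where a gene had several probes, the one with the brightest mean over the 23 arrays was taken, which left out 1 probe each of Tas2r130 and Tas2r136. Of the 35 receptors, 26 gave a signal well above background on at least 7 arrays and were tested, and 9 did not.

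Bitter receptors are G protein-coupled receptors on the tip of type II taste cells, where a bitter compound activates the G protein subunit gustducin and, through phospholipase C beta 2, calcium release and the channel Trpm5, makes the cell signal. A type II cell that carries bitter receptors usually carries several of them, and sweet and umami cells use the same machinery below other receptors. Its members bind different compounds: the mouse receptor Tas2r105 is known for its response to cycloheximide and Tas2r108 for its response to denatonium.

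The papillae came from male C57Bl6/j mice in 3 groups. The 8 DIO-R samples are read here as DIO mice held to 60% of the energy that they would take freely, since the labels do not spell the name out. The 8 DIO samples came from mice given freely an obesogenic diet high in fat and rich in saturated fatty acids. The 7 Lean samples came from mice fed standard chow with 3% fat by weight. Lingual epithelium was loosened with elastase and dispase before dissection, so each sample is a bulk of taste cells, surrounding epithelium and whatever else came with it, and 25 ng of its total RNA was labelled with Cy3. Nothing in the labels says that each sample is 1 animal, so p-values measure the spread between these samples, which may be technical. Signals below are log2 intensities from which the log2 of each array's own 75th percentile was taken. Of the 11 type II cell genes listed as markers, Calhm3 and Ovol3 were not among the array's symbols; 8 of the other 9 were well above background on all 23 arrays and Calhm1 on 22. Samples DIO 1 and DIO 6 stood apart: the mean of the 9 standardised type II genes was -2.37 in DIO 1 and -1.40 in DIO 6, and it lay between -0.88 and 0.75 in the other 21. Only 11 receptors were well above background in DIO 1 and 18 in DIO 6, although 71.2% and 71.3% of all probes were, close to the median of 71.2% over the 23 arrays. The receptors' median differences and the counts of receptor slopes are given with and without them. Most other values below include them.

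Each receptor was read by 1 probe of 60 bases. All probe positions are in mouse build mm9 as the deposited headers give them: 33 lie on chromosome 6, with Tas2r134 on chromosome 2 and Tas2r119 on chromosome 15. RefSeq gene lengths of assembly GRCm38.p6 were found for all 35 and were a multiple of 3 in 34, and 14 probes end exactly on the stop codon. Tas2r113 and Tas2r109, the brightest, are shown because their probes share the run of 11 bases in capitals, which no other Tas2r probe holds.
Tas2r113, chr6:132843899-132843958, plus strand: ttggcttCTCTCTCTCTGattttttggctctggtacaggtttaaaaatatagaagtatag
Tas2r109, chr6:132930033-132930092, minus strand: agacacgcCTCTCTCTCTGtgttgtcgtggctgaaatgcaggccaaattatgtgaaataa
Tas2r134 and Tas2r143 are shown because their probes share the longest run of any of the 595 pairs of member probes, 13 bases in capitals, and 590 pairs share 10 bases or fewer.
Tas2r134, chr2:51483868-51483927, plus strand: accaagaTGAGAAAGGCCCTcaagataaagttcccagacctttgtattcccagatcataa
Tas2r143, chr6:42351046-42351105, plus strand: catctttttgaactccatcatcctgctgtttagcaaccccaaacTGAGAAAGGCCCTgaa
Tas2r126, Tas2r107, Tas2r138 and Tas2r106 are shown as receptors that tracked the other type II genes in every setting where the slope was tested; of these 4 only the probe of Tas2r106 ends at the last base of its RefSeq length, with the stop codon in capitals.
Tas2r126, chr6:42385354-42385413, plus strand: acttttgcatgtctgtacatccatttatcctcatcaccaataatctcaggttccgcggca
Tas2r107, chr6:131609176-131609235, minus strand: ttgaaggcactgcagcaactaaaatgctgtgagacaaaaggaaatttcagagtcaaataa
Tas2r138, chr6:40562332-40562391, minus strand: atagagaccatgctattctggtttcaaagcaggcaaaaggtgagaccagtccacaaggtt
Tas2r106, chr6:131627978-131628037, minus strand: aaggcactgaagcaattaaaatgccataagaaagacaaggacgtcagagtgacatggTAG
Tas2r108 is shown because its probe starts 661 bases before the end of the gene's 894 bases, the farthest of the 35.
Tas2r108, chr6:40443824-40443883, plus strand: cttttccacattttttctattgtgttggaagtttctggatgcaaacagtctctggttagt

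Which receptors the papilla showed, and how bright each probe was, came first. The 10 receptors well above background on all 23 arrays were Tas2r113, Tas2r109, Tas2r118, Tas2r131, Tas2r140, Tas2r126, Tas2r107, Tas2r125, Tas2r106 and Tas2r134. Tas2r115, Tas2r117, Tas2r138, Tas2r105 and Tas2r137 were so on 22 arrays, and the array they missed was DIO 1. Tas2r130 was well above background on 21 arrays, Tas2r104, Tas2r143, Tas2r121, Tas2r120 and Tas2r103 on 20, Tas2r135 and Tas2r129 on 16, Tas2r119 on 13, Tas2r124 on 8 and Tas2r108 on 7. The 9 receptors below the limit were Tas2r102 on 6 arrays, Tas2r136 on 3, Tas2r139, Tas2r110, Tas2r122 and Tas2r123 on 1 each, and Tas2r144, Tas2r114 and Tas2r116 on none. The 26 kept are 74.3% of the family, against 81% of all symbols on the array. By the scanner software's weaker criterion, a signal positive and significant against background, all 35 passed on at least 7 arrays. A DIO-R sample had between 21 and 29 receptors well above background, with a median of 24.5, a DIO sample between 11 and 28, with a median of 22.5, and a Lean sample between 19 and 28, with a median of 23. The samples of the groups overlapped.

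Probe brightness spanned a wide range, from a geometric mean of 380 intensity units for Tas2r113 to 2.65 for Tas2r116. Probes differ in how strongly they bind, so this is an order of probe signals and not of RNA amounts. On that scale Tas2r113 averaged -0.17 and Tas2r109 -0.25, and one or the other was the brightest Tas2r probe on every array. A gap of more than 1 log2 unit separated them from Tas2r118 at -1.75, Tas2r131 at -1.99, Tas2r140 at -2.05 and Tas2r126 at -2.20. These 4 exchanged places between arrays, each lying between ranks 3 and 9. Tas2r107 followed at -2.72 and Tas2r115 at -3.11, then Tas2r125, Tas2r117, Tas2r138, Tas2r106, Tas2r105, Tas2r104, Tas2r134 and Tas2r130 between -3.19 and -3.95, Tas2r143, Tas2r121, Tas2r120, Tas2r103, Tas2r135 and Tas2r137 between -4.27 and -4.92, and Tas2r129, Tas2r119, Tas2r124 and Tas2r108 down to -6.07. Neighbours in this order differed by less than the larger of their SDs over the samples, apart from the step below Tas2r109. The second probe of Tas2r130 averaged -4.22 and was well above background on 20 arrays, close to the -3.95 and 21 arrays of the probe used. The second probe of Tas2r136 was well above background on none.

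**Figure D1:**
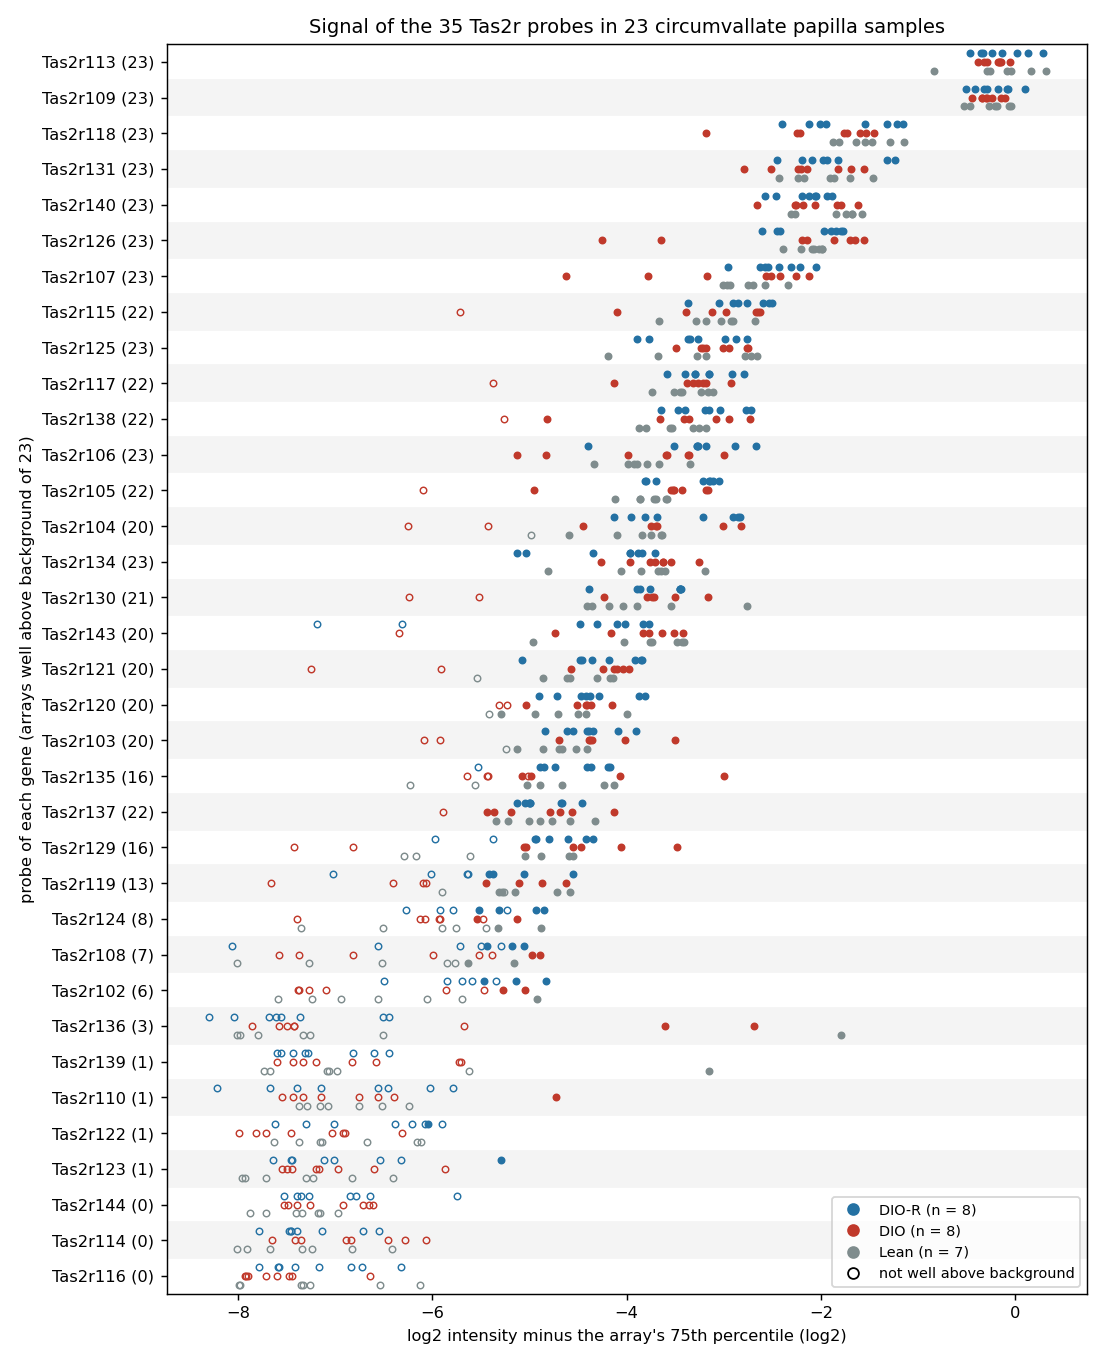
Signal of each of the 35 Tas2r probes (rows, brightest at the top, with the number of arrays well above background in brackets) in every sample; the x axis is log2 intensity minus the array's 75th percentile, points are samples coloured by group, and open points were not well above background. Tas2r113 and Tas2r109 lie to the right of the others on each array, and the leftmost filled or open points of many rows between Tas2r126 and Tas2r103 belong to 2 DIO samples.

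The first 2 probes also differed from the rest in how little they varied. Over 23 samples the SD was 0.25 for Tas2r113 and 0.16 for Tas2r109, and for the other 24 receptors tested it lay between 0.30 (Tas2r140) and 1.02 (Tas2r143). The run CTCTCTCTCTG that their probes share is held by 12 of the 55681 probes of the array on the probe strand, or 0.0216%, and its reverse complement by 10. All 12 were well above background on all 23 arrays, against 57.2% of all probes, and their mean signals lay between -1.58 and 2.57 with a median of 0.22, against a median of -3.30 over all probes. Their SDs over samples lay between 0.157 and 0.307. Of the other 10, 7 carry the symbols Lrrc19, Smarcc1, Gpr157, Nos3, Map3k5, Wfdc13 and Tlr7, and the rest are named only by a genome region. The 12 include the 2 receptor probes whose signals prompted the search. Other runs of 11 bases shared by member probes were not looked up, and SDs of equally bright probes are not given here. This set of probes was looked for after the signals were seen, and the part of the shared run in the signal was not tested. The run of 13 bases shared by Tas2r134 and Tas2r143 is in no other probe of the array, and its reverse complement is in none.

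No receptor passed the test between diet groups. In DIO against Lean, 0 of 26 passed limma's moderated test at an adjusted p under 0.05, where 0.00352% of the 28381 genes tested did. The count was also 0 of 26 in DIO-R against DIO (0.0599% of genes), in DIO-R against Lean (0.127%) and in the F test over the 3 groups (0.13%). At an unadjusted p under 0.05 the counts were 0 of 26 in DIO against Lean (8.95% of genes), 1 of 26 in DIO-R against DIO (9.72%) and 0 of 26 in DIO-R against Lean (8.95%). The samples of the groups overlapped for all 26 in each comparison, where 0.12%, 0.0881% and 0.303% of genes had groups that did not overlap.

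DIO and Lean differed by a median of -0.14 over the 26 receptors, against a median of -0.04 over all genes. Of the receptors 7 were higher and 19 lower in DIO, where 41.1% of all genes were higher. Tas2r118, the mouse counterpart of the human salicin receptor, had the smallest unadjusted p. Its lowest, median and highest signals were -3.19, -1.75 and -1.46 in DIO, against -1.88, -1.55 and -1.14 in Lean. DIO 6 was the lowest of all, 6 of 8 DIO samples lay below the Lean mean, and the difference was -0.42 ± 0.23 SE (unadjusted p = 0.081, adjusted p = 0.628). Tas2r119, on chromosome 15, ran from -7.66 to -4.62 in DIO around a median of -5.75, and from -5.90 to -4.59 in Lean around -5.26, and the samples overlapped. Its difference of -0.61 ± 0.38 SE (adjusted p = 0.685) rested on a probe well above background on 4 of 8 DIO and 5 of 7 Lean arrays. Tas2r140 gave -2.66, -2.12 and -1.62 in DIO and -2.31, -1.74 and -1.58 in Lean, a difference of -0.21 ± 0.15 SE (adjusted p = 0.73). The type II genes were lower in DIO as well, 9 of 9 with a median of -0.29 and 0 past the test. Their score ran from -2.37 to 0.64 in DIO, against -0.26 to 0.51 in Lean. Without DIO 1 and DIO 6 the receptors' median was 0.175, and without DIO 1 alone it was 0.04, so the direction of the family's difference rested on those samples. With the type II score in the fit it was 0.14. Within slides 1, 2 and 3, which each hold 2 or 3 arrays of a group, it was -0.35, -0.16 and 0.14. It was -0.03 both after normexp background correction and in the authors' deposited table, which holds 19 of the 35 receptors.

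Receptor signals averaged higher in DIO-R than in DIO papillae, again with none past the test. The median difference of DIO-R against DIO was 0.26, against 0.01 over all genes. Of the receptors 22 were higher and 4 lower in DIO-R, where 51.7% of all genes were higher. Tas2r106 gave -4.40, -3.27 and -2.67 in DIO-R and -5.13, -3.59 and -2.997 in DIO. Tas2r104 gave -4.13, -3.45 and -2.84 in DIO-R and -6.25, -3.73 and -2.82 in DIO. Both genes lie between 131.58 and 131.64 Mb on chromosome 6; for both the samples of the groups overlapped, and 7 of 8 DIO-R samples for Tas2r106 and 8 of 8 for Tas2r104 lay above the DIO mean. The differences were 0.55 ± 0.27 SE for Tas2r106 (unadjusted p = 0.0558, adjusted p = 0.517) and 0.71 ± 0.39 SE for Tas2r104 (adjusted p = 0.543). DIO 1 and DIO 6 were the lowest DIO samples for both, at -4.83 and -5.13 for Tas2r106 and -6.25 and -5.43 for Tas2r104. They pull the DIO means down. Without DIO 6 alone Tas2r106 differed by 0.37, and without DIO 1 alone Tas2r104 differed by 0.41. Tas2r134 went the other way and was the only receptor with an unadjusted p under 0.05. Its signals were -5.13, -3.97 and -3.71 in DIO-R and -4.27, -3.67 and -3.26 in DIO, with 7 of 8 DIO-R samples below the DIO mean, a difference of -0.52 ± 0.22 SE (unadjusted p = 0.031, adjusted p = 0.497). The lowest were DIO-R 3 at -5.13 and DIO-R 6 at -5.04, the 2 DIO-R arrays of slide 1. Without DIO-R 3 alone the difference was -0.39. Tas2r143, whose probe shares the run of 13 bases with that of Tas2r134, differed by -0.57 ± 0.48 SE, and Tas2r125 and Tas2r140 were the other receptors with lower means in DIO-R. For Tas2r143 the lowest DIO-R samples were again DIO-R 3 and DIO-R 6, at -6.31 and -7.18, both not well above background. The part of the run of 13 bases in these signals was not tested. Of the type II genes 8 of 9 were higher in DIO-R, with a median of 0.28 and 0 past the test. So were 7 of 10 type III taste cell genes (median 0.34), 10 of 10 keratinocyte genes (median 0.26) and 4 of 4 basal epithelium genes (median 0.18), also with 0 past the test. Without DIO 1 alone the receptors' median was 0.15, without DIO 1 and DIO 6 it was 0.02, and with the type II score in the fit it was 0.02. Within slides 1, 2 and 3 it was 0.60, 0.38 and -0.16. It was 0.05 after normexp background correction, 0.17 in the authors' deposited table and 0.16 over the 10 receptors well above background on all 23 arrays.

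The type II score averaged 0.21 in DIO-R, from -0.88 to 0.75, and 0.18 in Lean, from -0.26 to 0.51. A shorter score of Trpm5, Plcb2 and Gnat3 averaged 0.04 in DIO-R and 0.24 in Lean. Of the 26 receptors 20 were higher and 6 lower in DIO-R than in Lean, where 44.6% of all genes were higher. The receptors' median difference was 0.23, against -0.02 over all genes. Without DIO 1 and DIO 6, which enter only the shared spread here, it stayed at 0.23, and without Lean 4 it was 0.15. Within slides 1, 2 and 3 it was 0.22, 0.20 and -0.012. The median was 0.0069 after normexp background correction, 0.012 over the 10 receptors well above background on all 23 arrays and 0.08 in the authors' deposited table, so its size depended on the processing. Tas2r140 had the smallest unadjusted p: -2.57, -2.10 and -1.89 in DIO-R, against -2.31, -1.74 and -1.58 in Lean. All 8 DIO-R samples lay below the Lean mean, and the difference was -0.29 ± 0.15 SE (unadjusted p = 0.062, adjusted p = 0.589). Tas2r106 gave -4.40, -3.27 and -2.67 in DIO-R and -4.34, -3.90 and -3.35 in Lean, with 7 of 8 DIO-R samples above the Lean mean and a difference of 0.54 ± 0.28 SE (adjusted p = 0.601). Tas2r143 gave -7.18, -4.21 and -3.77 in DIO-R and -4.97, -3.73 and -3.41 in Lean, a difference of -0.92 ± 0.49 SE (adjusted p = 0.614), with 2 DIO-R samples not well above background. The 3 comparisons share samples, so a receptor's values in them are not independent of each other.

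**Figure D2:**
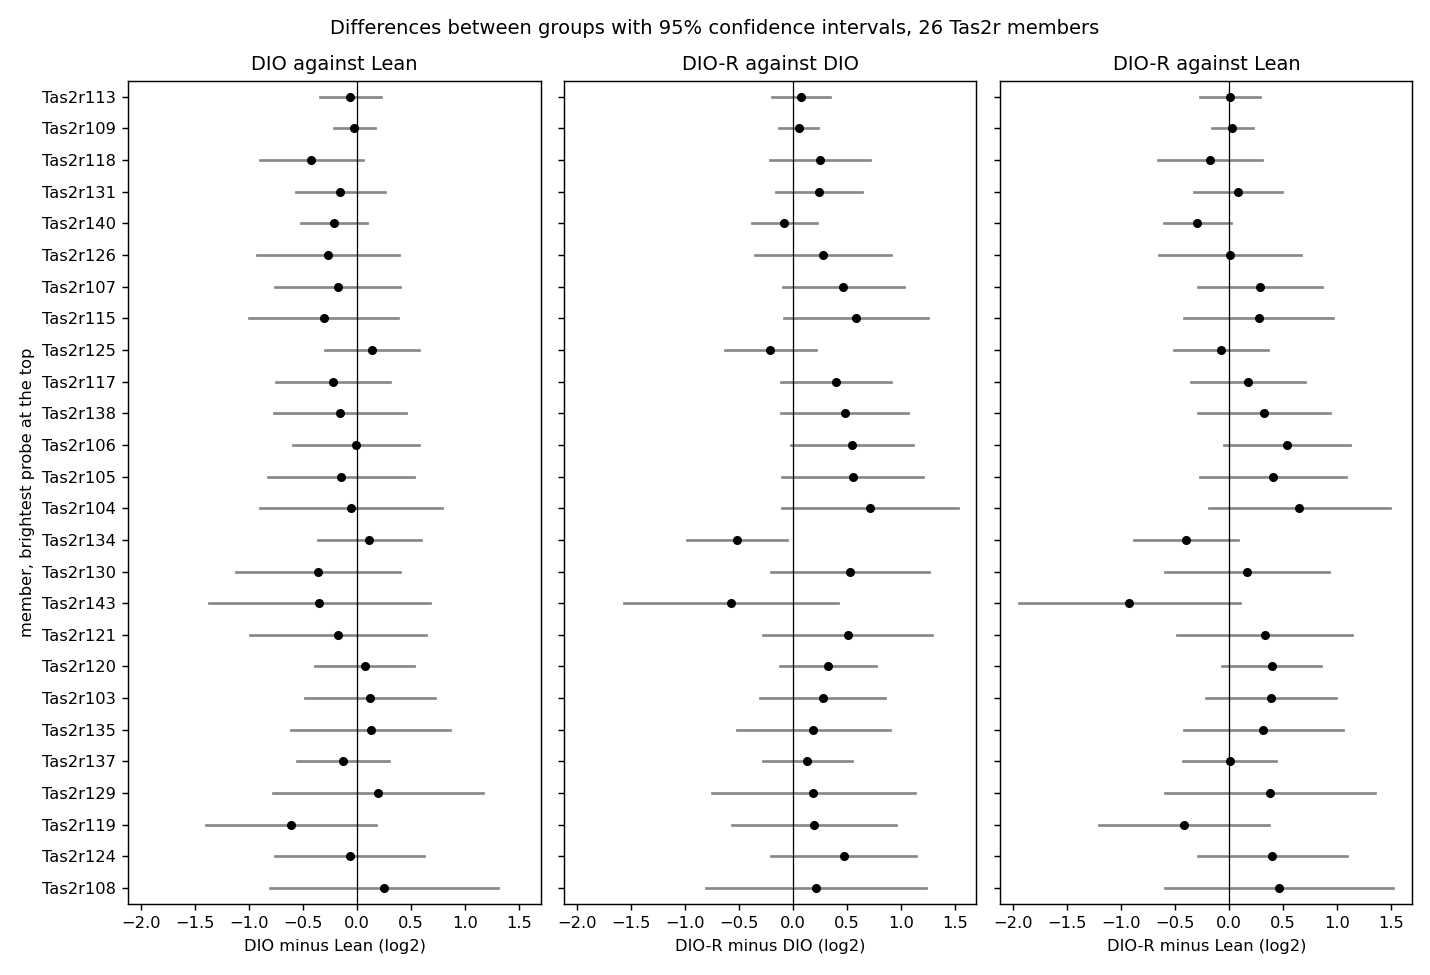
Difference between group means (points) with 95% confidence intervals (lines) for the 26 Tas2r members tested, in log2 units, in DIO minus Lean, DIO-R minus DIO and DIO-R minus Lean; rows run from the brightest probe at the top. All intervals include 0 except that of Tas2r134 in DIO-R minus DIO, and those of Tas2r113 and Tas2r109 are the narrowest.

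Mean signals of marker genes of other tissues also differed between the groups, and of these genes only Aif1 passed the adjusted test. The 4 red cell genes were all higher in DIO than in Lean, with a median of 1.30, and all lower in DIO-R than in DIO, with a median of -1.17, and 0 of 4 passed the adjusted test either way. Their score ran from -1.47 to 0.71 in DIO-R, from -0.41 to 2.16 in DIO and from -1.82 to 0.19 in Lean. Of 10 keratinocyte genes, 8 were lower in DIO than in Lean (median -0.44), and all 5 fibroblast genes were higher (median 0.49), with 0 past the test. The 6 skeletal muscle genes were lower in DIO-R than in DIO (median -0.58) and than in Lean (median -0.58), with 0 past the test. The muscle score had a median of -0.34 in DIO-R, 0.44 in DIO and 0.53 in Lean. It was lowest in DIO-R 5 at -2.45 and DIO-R 10 at -1.64, which pull the DIO-R means down. In DIO-R 2, DIO-R 3 and DIO-R 7 it lay between 0.66 and 0.75, above the medians of DIO and Lean. Muscle differences without DIO-R 5 and DIO-R 10 are not given here. The 4 leukocyte genes were higher in DIO than in Lean (median 0.53), and Aif1, a macrophage gene, passed at a difference of 0.95 (adjusted p = 0.0078), the 1 gene of 28381 that did. The part of these tissues in the receptor differences was not tested.

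Between samples of the same group, 16 of 26 receptors followed the other type II cell genes. Without DIO 1 and DIO 6, 7 did. The slope of each gene on the type II score was fitted with the group means held, over all 23 samples and 28372 genes outside the score; the score holds no Tas2r gene. Of 26 receptors 16 rose with the score at an adjusted p under 0.05, which is 61.5%, against 7.76% of all genes, and 0 fell, against 4.66%; in either direction 12.4% of genes passed. The median slope was 0.57 log2 per unit of score, against 0.00 over all genes, and the SD of the score over the samples was 0.738. In bulk tissue, fewer type II cells and less receptor RNA per cell cannot be told apart. Genes of other cell types moved with the score too. Of 4 type I taste cell genes 2 rose, Kcnj1 by 0.87 and Entpd2 by 0.23. Of 4 basal epithelium genes 2 rose, Sox2 by 0.37 and Krt5 by 0.23, and of 10 keratinocyte genes 1 rose, Ivl, by 0.32. Of 6 skeletal muscle genes 3 fell, with a median slope over the 6 of -0.64, and Dcn among 5 fibroblast genes fell, at -0.28. Of 7 genes listed for the von Ebner gland 4 were tested. Muc5b fell, at -0.94, and Bpifb1, Dmbt1 and Lipf did not pass. The part of these cell types in the receptor slopes was not tested, apart from the fits with a type III or a keratinocyte score. Of 10 type III taste cell genes 7 rose, with a median slope over the 10 of 0.55, against 0.57 over the receptors. The type III score was also lowest in DIO 1, at -2.41. With the type III score added to the fit, 8 receptors rose (2.69% of genes), and without DIO 1 and DIO 6, 7 rose (2.23% of genes); the 8 and the 7 were all among the 16. The replicate numbers of the labels, used as a block, left 7 (1.35% of genes). Within the slides the median slope was 0.49, 0.74 and 0.35, and within the groups it was 0.41 in DIO-R, 0.69 in DIO and 0.46 in Lean, settings added after the data were seen.

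**Figure D3:**
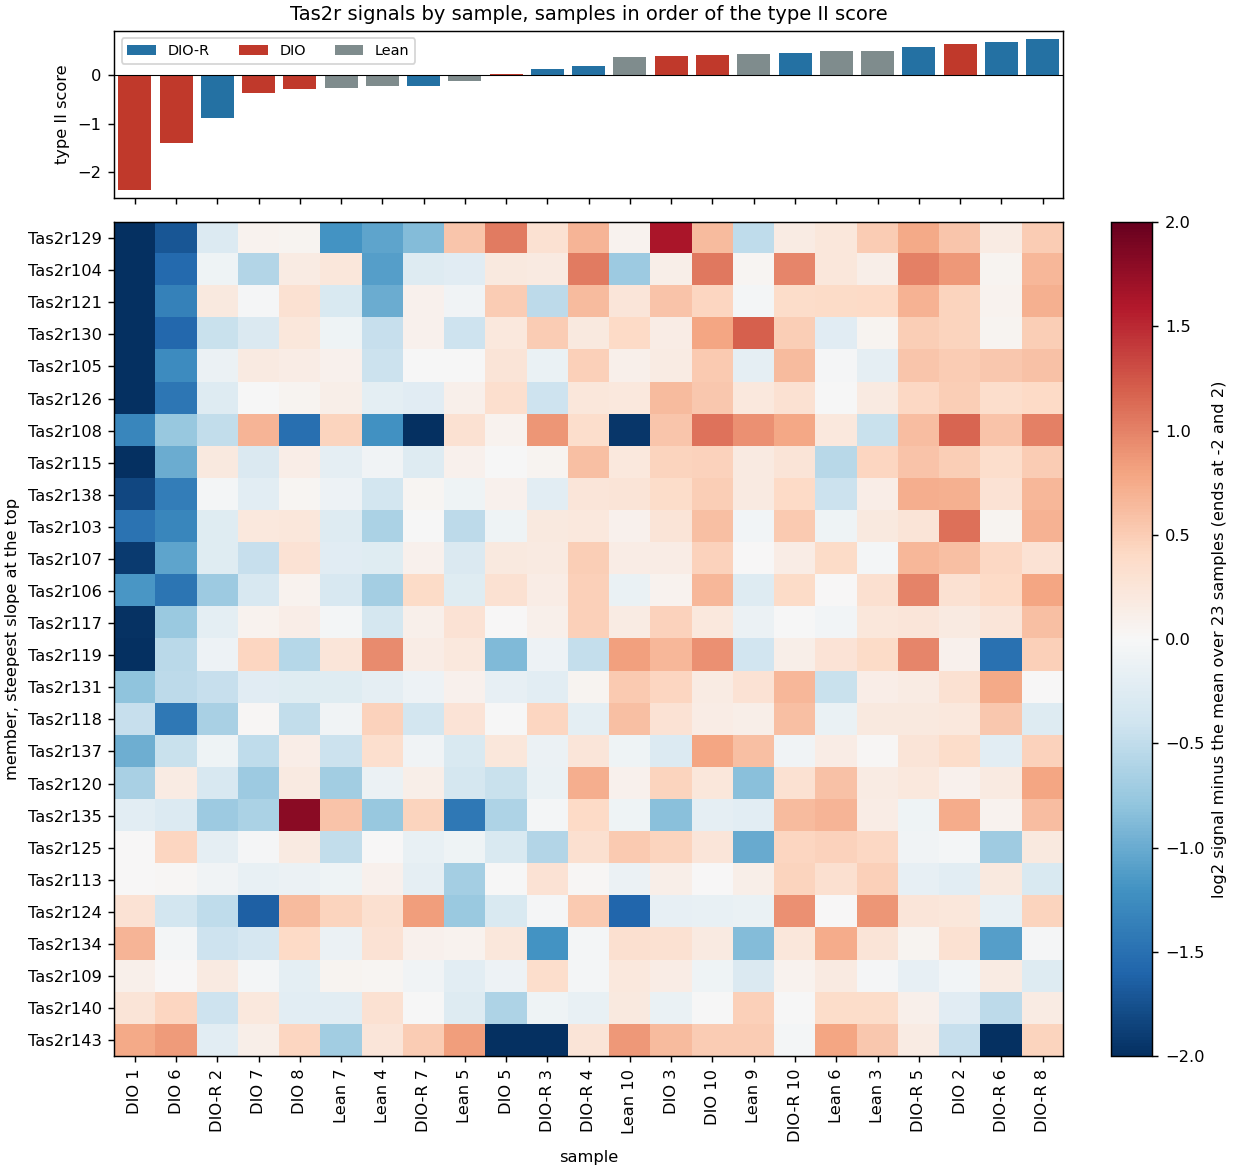
Top: type II score of each sample (bars, coloured by group), in rising order. Bottom: log2 signal of the 26 Tas2r members minus each member's mean over 23 samples, samples in the same order, members from the steepest slope at the top. The leftmost columns, DIO 1 and DIO 6, are low (blue) in most upper rows and near 0 or above it in the lowest rows, such as Tas2r109, Tas2r140 and Tas2r143.

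Between 131.58 and 131.64 Mb on chromosome 6, 5 of 5 receptors tested rose with the score, where 61.5% of the family and 7.76% of all genes did. Whether groups along the chromosome differ from the family was not tested. Without DIO 1 and DIO 6, Tas2r107, Tas2r106 and Tas2r105 passed and Tas2r104 and Tas2r130 did not. This group holds Tas2r130, Tas2r107, Tas2r106, Tas2r104, Tas2r105 and Tas2r114; Tas2r114 was on no array well above background, and the other 5 were tested. Tas2r107 had the smallest p of the family, with signals of -2.96, -2.49 and -2.05 in DIO-R, -4.63, -2.54 and -2.12 in DIO and -3.01, -2.75 and -2.34 in Lean. The lowest were DIO 1 at -4.63 and DIO 6 at -3.78, and the slope was 0.71 ± 0.07 SE (adjusted p = 3.12e-06). Tas2r105, the cycloheximide receptor, gave -3.81, -3.18 and -3.05 in DIO-R, -6.10, -3.52 and -3.17 in DIO and -4.12, -3.72 and -3.58 in Lean. It was lowest in the same 2 samples, at -6.10 and -4.95, with a slope of 0.81 ± 0.09 (adjusted p = 9.37e-06). Tas2r104 was steeper at 0.95 ± 0.14 (adjusted p = 0.000122) and Tas2r130, with -4.39, -3.60 and -3.44 in DIO-R, -6.24, -3.76 and -3.16 in DIO and -4.41, -4.03 and -2.76 in Lean, had a slope of 0.89 ± 0.11 (adjusted p = 2.53e-05). Tas2r106 rose by 0.68 ± 0.09 (adjusted p = 2.64e-05). In Lean, Tas2r104 ran from -4.98 to -3.64 around a median of -3.84.

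On the same chromosome, 3 receptors lie between 40.44 and 40.56 Mb, and all 3 rose, where 61.5% of the family and 7.76% of all genes did. Without DIO 1 and DIO 6, Tas2r138 passed and Tas2r137 and Tas2r108 did not. Tas2r138 gave -3.65, -3.17 and -2.72 in DIO-R, -5.26, -3.38 and -2.73 in DIO and -3.87, -3.53 and -3.18 in Lean, with DIO 1 and DIO 6 lowest and a slope of 0.74 ± 0.08 (adjusted p = 6.89e-06). Tas2r137 had narrower ranges, -5.13, -4.99 and -4.46 in DIO-R, -5.89, -4.99 and -4.13 in DIO and -5.35, -4.90 and -4.32 in Lean, and a shallower slope of 0.39 ± 0.09 (adjusted p = 0.0122). Tas2r108, the denatonium receptor, gave -8.06, -5.47 and -5.06 in DIO-R, -7.57, -5.76 and -4.89 in DIO and -8.01, -5.85 and -5.16 in Lean. Its slope of 0.80 ± 0.26 only just passed (adjusted p = 0.0473), its probe was well above background on 7 arrays, and it passed in 3 of 12 other settings. Within Lean alone it was -0.022. Tas2r118 lies alone at 23.9 Mb, with signals of -2.40, -1.75 and -1.16 in DIO-R, -3.19, -1.75 and -1.46 in DIO and -1.88, -1.55 and -1.14 in Lean, and rose by 0.39 ± 0.11 (adjusted p = 0.0293). That slope was -0.079 within Lean alone and did not pass without DIO 1 and DIO 6.

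Between 42.1 and 42.4 Mb lie Tas2r126, Tas2r143, Tas2r135, Tas2r139 and Tas2r144. Of the 3 tested only Tas2r126 rose, where 61.5% of the family and 7.76% of all genes did. It also rose without DIO 1 and DIO 6, where 26.9% of the family and 2.23% of all genes did. Tas2r126 gave -2.61, -1.94 and -1.78 in DIO-R, -4.25, -2.002 and -1.56 in DIO and -2.39, -2.07 and -1.99 in Lean. DIO 1 at -4.25 and DIO 6 at -3.64 were again lowest, and the other 21 samples lay at -2.61 or above; the slope was 0.80 ± 0.08 (adjusted p = 3.62e-06). Tas2r143 did not follow, with -7.18, -4.21 and -3.77 in DIO-R, -6.34, -3.80 and -3.42 in DIO and -4.97, -3.73 and -3.41 in Lean. Its lowest samples were not the 2 with the lowest scores, whose signals were -3.51 in DIO 1 and -3.42 in DIO 6. The slope was -0.29 ± 0.30 (adjusted p = 0.569), with a 95% interval of -0.90 to 0.33 that includes 0. Tas2r135 had a slope of 0.22 ± 0.21 (adjusted p = 0.531).

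The largest group, 18 receptors between 132.6 and 133.005 Mb, was mixed: 12 were tested and 6 rose, where 61.5% of the family and 7.76% of all genes did. Without DIO 1 and DIO 6, Tas2r131 and Tas2r103 passed and Tas2r129, Tas2r121, Tas2r115 and Tas2r117 did not. Tas2r129 had the steepest slope of the family, 1.097 ± 0.16 (adjusted p = 0.000119), with signals of -5.97, -4.87 and -4.35 in DIO-R, -7.42, -4.79 and -3.48 in DIO and -6.29, -5.04 and -4.55 in Lean and 7 arrays not well above background. Tas2r121, next after Tas2r104, stood at 0.93 ± 0.13 (adjusted p = 5.18e-05), with -5.07, -4.27 and -3.84 in DIO-R, -7.25, -4.18 and -3.98 in DIO and -5.54, -4.58 and -4.14 in Lean. In both, DIO 1 was the lowest sample. Tas2r115 gave -3.37, -2.81 and -2.51 in DIO-R, -5.72, -3.05 and -2.63 in DIO and -3.67, -3.03 and -2.68 in Lean and rose by 0.79 ± 0.11 (adjusted p = 7.49e-05). Tas2r117 gave -3.58, -3.22 and -2.80 in DIO-R, -5.37, -3.29 and -2.92 in DIO and -3.74, -3.43 and -3.11 in Lean and rose by 0.60 ± 0.08 (adjusted p = 6.29e-05). For both receptors DIO 1 lay lowest and DIO 6 next, and the samples of the groups overlapped. Tas2r103 gave -4.84, -4.40 and -3.91 in DIO-R, -6.08, -4.39 and -3.51 in DIO and -5.24, -4.69 and -4.41 in Lean and rose by 0.72 ± 0.08 (adjusted p = 7.99e-06). Tas2r131, the receptor by whose gene bitter cells have been marked in mice, gave -2.45, -1.96 and -1.24 in DIO-R, -2.80, -2.18 and -1.56 in DIO and -2.43, -1.90 and -1.47 in Lean and rose by 0.41 ± 0.08 (adjusted p = 0.00311), the shallowest of these 6. Its lowest sample was DIO 1 at -2.80.

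The other 6 of that group did not pass: Tas2r113, Tas2r109, Tas2r140, Tas2r125, Tas2r120 and Tas2r124. Tas2r113 gave -0.47, -0.19 and 0.28 in DIO-R, -0.38, -0.17 and -0.05 in DIO and -0.84, -0.08 and 0.31 in Lean, and Tas2r109 gave -0.51, -0.24 and 0.09 in DIO-R, -0.45, -0.30 and -0.10 in DIO and -0.53, -0.21 and -0.04 in Lean. In DIO 1, the sample with the lowest score, they stood at -0.17 and -0.15, inside the range of the other samples. Their slopes were 0.04 ± 0.08 (95% interval -0.13 to 0.21) and -0.05 ± 0.05 (95% interval -0.16 to 0.06). Both intervals end below the interval of Tas2r126, which runs from 0.63 to 0.97, and that of Tas2r107, from 0.57 to 0.86. Tas2r140 had a slope of -0.07 ± 0.09 with an interval of -0.26 to 0.12, and Tas2r125 one of 0.04 ± 0.13 with -0.22 to 0.31. Tas2r124, at -6.27, -5.42 and -4.85 in DIO-R, -7.40, -5.92 and -5.13 in DIO and -7.35, -5.76 and -4.88 in Lean, had the flattest slope of all, 0.02 ± 0.21, but a wide interval of -0.41 to 0.45 and a signal well above background on 8 arrays. Tas2r120 missed the threshold at 0.29 ± 0.12 (adjusted p = 0.115). Away from chromosome 6, Tas2r134 on chromosome 2 gave -5.13, -3.97 and -3.71 in DIO-R, -4.27, -3.67 and -3.26 in DIO and -4.81, -3.67 and -3.20 in Lean and a slope of -0.04 ± 0.14 with an interval of -0.33 to 0.26. Tas2r119 on chromosome 15 gave 0.53 ± 0.20 (adjusted p = 0.0891). Slide 1, 2 or 3 of the array set made a difference at an adjusted p under 0.05 to 0.708% of genes and, in the family, to Tas2r125.

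**Figure D4:**
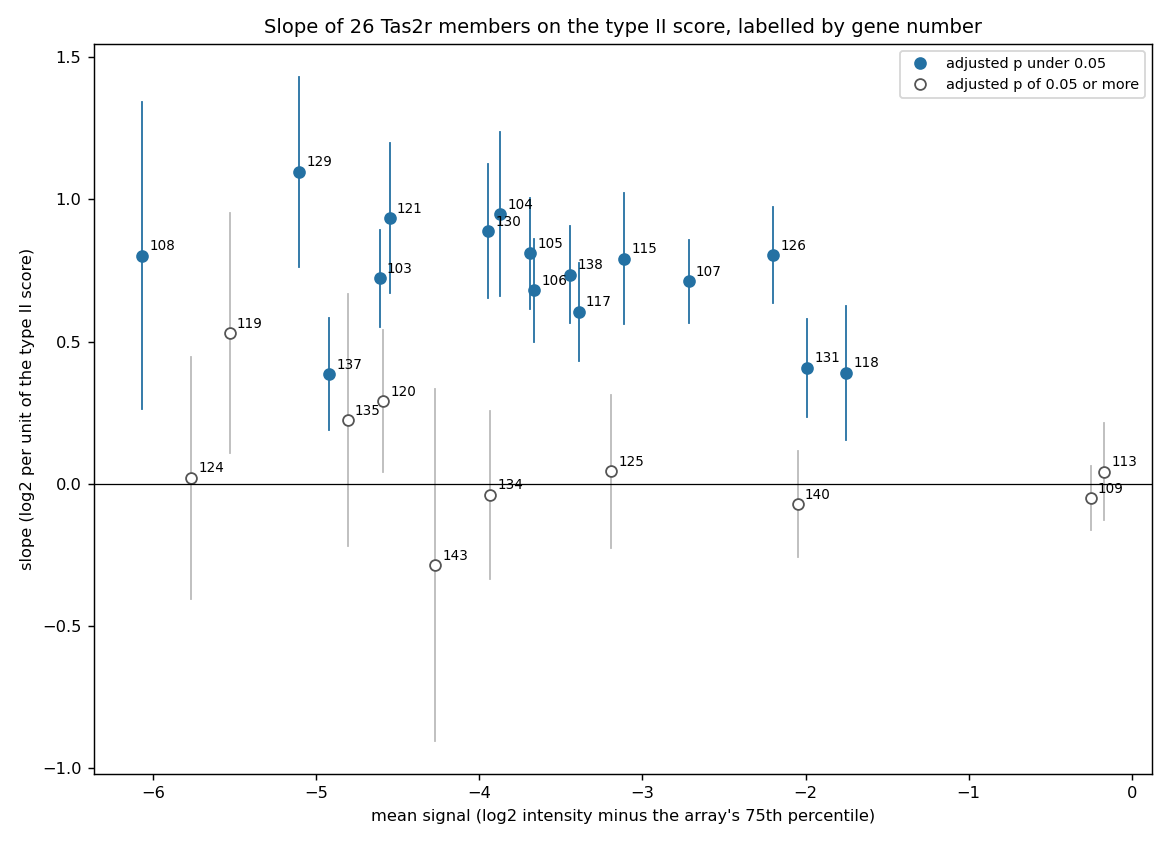
Slope on the type II score (y axis, log2 per unit of score, lines are 95% confidence intervals) against mean signal (x axis, log2) for the 26 Tas2r members tested, labelled by gene number. Filled points passed an adjusted p of 0.05; steep and flat members occur side by side along the signal axis, and the 2 brightest probes lie at 0.04 and -0.05.

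**Figure D5:**
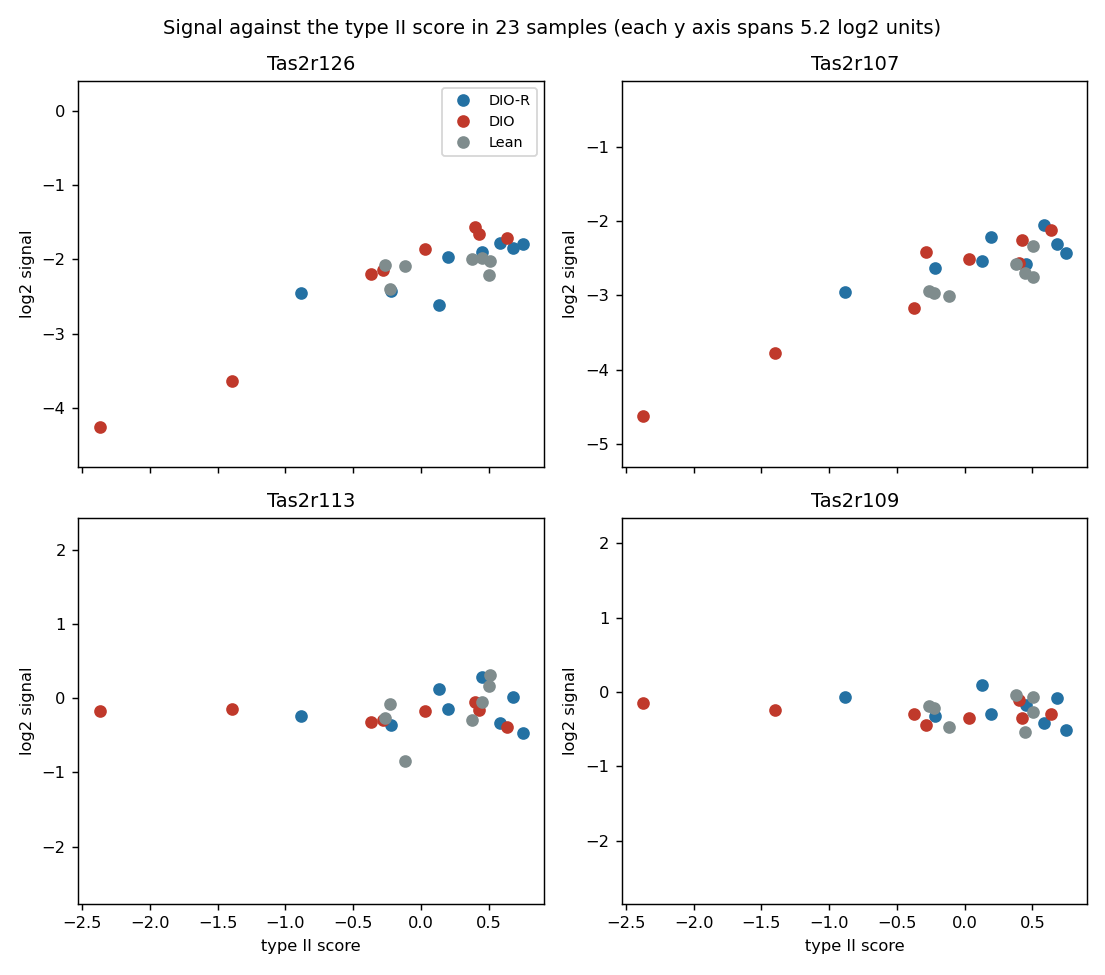
Log2 signal (y axis) against the type II score (x axis) of the 23 samples for Tas2r126 and Tas2r107 (top) and Tas2r113 and Tas2r109 (bottom); points are samples coloured by group and every panel spans the same number of log2 units. The points of Tas2r126 and Tas2r107 climb from DIO 1 and DIO 6 at the lower left, and in those of Tas2r113 and Tas2r109 the same samples lie level with the rest.

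Tas2r126, Tas2r107, Tas2r106, Tas2r138 and Tas2r103 rose with the score in each of the 12 to 14 other settings in which each could be fitted, and without DIO 1 and DIO 6 their slopes were 0.45, 0.49, 0.71, 0.48 and 0.54. Tas2r131 and Tas2r105 also passed without those samples. The other 9 of the 16 did not, with slopes between 0.26 and 1.04 there. Tas2r113, Tas2r109, Tas2r140, Tas2r125, Tas2r134, Tas2r143, Tas2r135 and Tas2r124 passed in none of their settings, Tas2r120 in 1 and Tas2r119 in 2.

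The signalling chain below the receptors was measured with them. Gnat3, the gustducin subunit, differed by -0.35 ± 0.31 SE in DIO against Lean and by 0.40 ± 0.30 SE in DIO-R against DIO; Trpm5, the cation channel, by -0.36 ± 0.30 SE and 0.40 ± 0.29 SE; and Gng13 and Gnb3, gustducin's partners, by -0.29 ± 0.33 SE and -0.40 ± 0.31 SE in DIO against Lean. Itpr3, the calcium release channel, differed by 0.27 ± 0.10 SE in DIO-R against DIO (unadjusted p = 0.0187, adjusted p = 0.479), and Plcb2, the phospholipase, by -0.09 ± 0.11 SE. Calhm1, part of the transmitter release channel, differed by -0.18 ± 0.29 SE in DIO against Lean, and Pou2f3, the factor that type II cells need, by -0.07 ± 0.12 SE. The mean of standardised Trpm5, Plcb2 and Gnat3 was -2.98 in DIO 1 and -1.22 in DIO 6. It lay between -0.24 and 0.89 in the other DIO samples. All these differences include DIO 1 and DIO 6, and their values without them are not given here. Of 17 genes tested from the bitter signalling list, 0 passed in any of the 3 comparisons, where at most 0.127% of all genes did. Their medians were -0.10 in DIO against Lean, 0.20 in DIO-R against DIO and 0.03 in DIO-R against Lean. Of the 10 outside the score, 2 rose with it, where 7.76% of all genes rose. They were Rgs21, a regulator of G protein signalling, at 0.64 ± 0.07 (adjusted p = 4.32e-06), and the channel Panx1, at 0.37 ± 0.04 (adjusted p = 6.89e-06). Gnat2, the cone transducin, fell with the score at -0.63 ± 0.15 (adjusted p = 0.00926), where 4.66% of all genes fell. Both sweet and umami receptor genes outside the score rose, Tas1r2 by 0.85 ± 0.08 and Tas1r1 by 0.47 ± 0.05. These slopes too include DIO 1 and DIO 6.

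Genes known to carry chemoreceptors to the membrane were measured as well. Of the 7 receptor transport genes 0 passed a comparison, where at most 0.127% of all genes did, and 0 had a slope past the threshold, where 12.4% of all genes did, so a count of 0 among 7 is near the share over all genes. Rtp2 and Reep1 had the smallest unadjusted p for the slope, at -0.28 ± 0.10 (unadjusted p = 0.0146, adjusted p = 0.0832) and -0.24 ± 0.09 (unadjusted p = 0.0126, adjusted p = 0.0754). Rtp3 had a slope of 0.06 ± 0.24 and Rtp4 one of 0.25 ± 0.23, and Reep2 one of 0.12 ± 0.07; Rtp1 and Reep3 had slopes of 0.04 ± 0.26 and 0.05 ± 0.04. Rtp4, which is also known as an interferon-induced gene, averaged 1.73 in DIO, against 0.80 in Lean, a difference of 0.93 ± 0.38 SE (unadjusted p = 0.0236, adjusted p = 0.472), and all 8 DIO samples lay above the Lean mean.

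The genes most like the receptors were ranked by Pearson's r over the 23 arrays, group means removed, with the mean of the 10 receptors well above background on every array. The first 10 outside the family were the probe A_55_P2129469, which has no gene symbol, at 0.90, Tspan14 at 0.88, Slc23a4 at 0.88, Tbc1d25 at 0.87, Hap1 at 0.87, Rps6ka3 at 0.87, Lancl3 at 0.86, Hs6st1 at 0.86, Daglb at 0.86 and Gm266 at 0.86. These points share their arrays and the low values of DIO 1 and DIO 6, and the order is a description.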

How the data were processed

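Signals were measured on 1-colour Agilent arrays, 1 per sample, on 3 slides that each hold arrays of all groups. Per the file headers, the authors took spot intensities from the scans by Agilent Feature Extraction (version 10.10.1.1), whose steps subtracted background and corrected trends within each array. The authors' deposited value table holds log2 values brought to a common level; limma is named in the submitters' processing notes, and the exact steps are not given in the sources used here. The well-above-background flags are the scanner software's, per the file headers.

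From the 62976 spots of an array 3671 control spots were left out, spots of 1 probe were averaged, and the brightest probe stood for its symbol. Processed intensities were divided by the array's 75th percentile and taken to log2. Genes well above background on at least 7 of 23 arrays, 28381 in all, entered a linear model of 3 group means (limma 3.58.1, functions lmFit and eBayes, under R 4.3.3), two-sided, with Benjamini-Hochberg adjustment over all genes and a threshold of 0.05. A second fit added the type II score, the mean of 9 standardised genes, and tested its slope. Every p-value in the text comes from these limma fits. The scripts were tested on simulated data, and the plots were made in matplotlib 3.10.9 under Python 3.11.15. The number of arrays limits the precision.

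The members and lists were chosen with earlier results of these data known. Full values by group were given for the 8 brightest members, the 3 with the smallest p in each comparison, those past a test and the 3 steepest and flattest slopes. Alternatives covered background correction, normalization, the filter, probes, slides, replicate numbers, covariates and samples left out.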

Additional observations from a re-analysis of the deposited data

Results flagged for a closer look

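Within each group, the highest and the lowest sample were compared with their nearest neighbour by Dixon's criterion, for each of the 35 receptors, for the number of receptors well above background and for the type II score, over 111 groups of values. In 7 of them, all of single receptors, 1 sample stood apart, and chance alone gives about 1 in 20. No explanation was tested.

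Tas2r118 stood at -3.188 in DIO 6, against -2.246 in the next lowest DIO sample. Tas2r143, in the cluster near Tas2r126, was lowest at -6.345 in DIO 5, where the next DIO sample had -4.738, and at -4.966 in Lean 7, where the next Lean sample had -4.027. Tas2r124 stood at -7.397 in DIO 7, against -6.125 in its nearest DIO neighbour.

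The other 3 were receptors below the limit for testing. Tas2r136 reached -1.799 in Lean 3, against -6.506 in the next Lean sample, and was well above background in only 3 samples. Tas2r110 was highest in DIO 5 at -4.731, with -6.392 in the next DIO sample. Tas2r116, on no array well above background, was highest in DIO 8 at -6.638, with -7.441 next.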

How the results depend on the processing

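The count of receptors past the test stayed at 0 in DIO-R against DIO, DIO-R against Lean, DIO against Lean and the F test under every alternative run. With 1 sample left out, the median difference ran from 0.15 to 0.37 in DIO-R against DIO and from 0.15 to 0.29 in DIO-R against Lean. In DIO against Lean it ran from -0.23 to 0.04. In these fits 14 to 16 receptors rose with the type II score, with median slopes of 0.48 to 0.62. With all samples 61.5% of the receptors and 7.76% of all genes rose. The shares of all genes with 1 sample left out are not given here. After normexp background correction the medians were 0.05 in DIO-R against DIO, 0.0069 in DIO-R against Lean and -0.03 in DIO against Lean. In the authors' value table they were 0.17, 0.08 and -0.03 in the same order, and over the receptors well above background on all 23 arrays 0.16, 0.012 and -0.11. Within slide 3 the DIO-R against Lean median was -0.012. The median slope was 0.20 after normexp background correction and 0.33 in the authors' value table. Over the 10 receptors well above background on all 23 arrays it was 0.22, and 5 of them rose. The share of all genes rising under that filter is not given here. The median slope was 0.40 with 7 rising without DIO 1 and 6, and 0.38 with 8 rising with the type III score added. In settings added after the data were seen, it was 0.74 within slide 2, 0.35 within slide 3, 0.41 within DIO-R and 0.69 within DIO, and within Lean the slopes of Tas2r118 and Tas2r108 were -0.079 and -0.022. The causes of these shifts were not tested.

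Correlations between samples with the same replicate number ran from -0.367 to 0.335, over 5 to 7 pairs in each comparison. So few pairs cannot settle whether the numbers pair the samples. With the numbers as a block the median slope was 0.42 with 7 receptors rising, and the median differences were 0.16 in DIO-R against DIO, 0.21 in DIO-R against Lean and 0.02 in DIO against Lean. Probes near background, such as those of Tas2r108 and Tas2r124, limit what can be read from them.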
